A study of Mus musculus with 2 samples.

Results

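Elastic fibre genes, 10 in all, which encode the fibre's core, scaffold and linking proteins, were followed in ribosome-bound RNA from mouse cerebral cortex. They were taken by name: the core protein (Eln), the fibrillins (Fbn1, Fbn2), a microfibril glycoprotein (Mfap5), an interface protein (Emilin1) and the fibulins (Fbln1, Fbln2, Fbln5, Efemp1, Efemp2). All 10 had a row among the 32531 genes listed, and all 10 passed the minimum of 10 counts over both libraries, as did 17306 genes in all. The study profiled mice of the line Gdnf-EGFP/Rpl10a (ES2243) by translating ribosome affinity purification (TRAP): a ribosomal protein fused to EGFP is made under the regulatory sequences of Gdnf, homogenized cortex is passed over beads that carry antibodies to EGFP, and the RNA of the captured polysomes is sequenced. The mice are described as adult and untreated and the profiled cells as pericytes. There was 1 group of 2 immunopurified libraries, IP2 and IP1. The labels do not say whether these came from separate animals or from pools, so the spread between them may be technical. Unpurified cortex was not analysed here, and no value below is an enrichment.

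Elastic fibres give arteries, skin and lung their recoil. Tropoelastin, the soluble product of Eln, is laid down on a scaffold of microfibrils built from fibrillins, with the help of fibulins, and is then crosslinked by lysyl oxidases into an insoluble core. In the brain such fibres are found chiefly in the internal elastic lamina of arteries and in the meninges, while capillaries, the vessels that pericytes cover, have no elastic lamina. The measurements below show how many of the reads on Gdnf-tagged ribosomes came from each of these genes, and how far the 2 libraries differed.

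The sequences before the transcription starts of 4 members are shown, because 2 of these genes (Fbln2 and Fbln1) had the largest ratio between the libraries, Efemp1 had the most reads and Fbn1 did not pass the test between the libraries. RefSeq promoter entries (GRCm38.p6, the assembly that mm10 names) were matched for 7 of the 10 members, not for Eln, Fbn2 or Mfap5. Each line gives the 250 bases before a start, 5′ to 3′ on the gene's strand, and for Fbln1 the outer of its starts. Capitals mark the GC box (GGGCGG), the Smad element (CAGAC), the AP-1 site (TGANTCA), the TATA box (TATAAA), the CCAAT box (CCAAT) and the MCAT element (CATTCC), each searched on both strands.
Fbln2, chr6:91212514-91212763, plus strand: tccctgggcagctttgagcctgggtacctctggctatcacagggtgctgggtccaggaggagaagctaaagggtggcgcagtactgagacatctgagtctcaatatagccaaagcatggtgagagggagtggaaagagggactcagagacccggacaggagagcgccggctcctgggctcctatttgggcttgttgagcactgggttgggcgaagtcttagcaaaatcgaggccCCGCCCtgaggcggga
Fbln1, chr15:85205699-85205948, plus strand: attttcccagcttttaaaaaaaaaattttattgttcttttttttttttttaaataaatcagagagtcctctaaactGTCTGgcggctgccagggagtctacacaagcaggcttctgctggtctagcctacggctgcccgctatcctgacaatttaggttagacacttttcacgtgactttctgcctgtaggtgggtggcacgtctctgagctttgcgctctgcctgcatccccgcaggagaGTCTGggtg
Efemp1, chr11:28852955-28853204, plus strand: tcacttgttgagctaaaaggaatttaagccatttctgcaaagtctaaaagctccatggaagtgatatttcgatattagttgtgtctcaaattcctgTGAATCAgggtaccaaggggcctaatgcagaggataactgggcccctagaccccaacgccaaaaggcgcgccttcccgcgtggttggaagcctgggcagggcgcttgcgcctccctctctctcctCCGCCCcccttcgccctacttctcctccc
Fbn1, chr2:125506439-125506688, minus strand: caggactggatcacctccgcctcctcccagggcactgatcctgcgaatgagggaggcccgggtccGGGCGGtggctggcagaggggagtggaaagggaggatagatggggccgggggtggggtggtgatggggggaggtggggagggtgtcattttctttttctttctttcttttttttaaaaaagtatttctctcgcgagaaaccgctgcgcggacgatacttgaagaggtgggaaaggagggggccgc

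No capitals overlap another motif of the set in these 4 windows. Fbln2 and Fbn1 held 1 GC box each, Fbln1 held 2 Smad elements, and Efemp1 held 1 GC box and 1 AP-1 site. Over the 11 windows of the 7 members, the GC box was found in 8, against 32.7% of the 32851 windows of all genes. The Smad element was found in 5 of the 11, against 42.2% of all windows, the AP-1 site in 1 against 6.75%, and the CCAAT box in 1 against 33.8%. The TATA box and the MCAT element were in 0 of the 11, against 12.4% and 12.6% of all windows. The E box (CANNTG), which is not capitalised and overlaps the CCAAT box of Fbln5, was in 6 of the 11, against 66.2% of all windows. The windows of the members had a median GC content of 60.3%, against 52.7% for all windows, over 250 bases before and 50 after each start. Several windows of 1 gene overlap, and a match says only that the letters are present.

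The counts in genes totalled 72732502 in IP2 and 65200231 in IP1. Markers of mural cells were well covered: all 8 pericyte and all 8 arterial smooth muscle markers were at or above 10 CPM (a gene's count relative to all gene counts of its library) in both libraries. So were 9 of 10 markers of perivascular and meningeal fibroblasts, 6 of 6 of neurons, 6 of 6 of oligodendrocytes, 6 of 6 of oligodendrocyte precursors and 5 of 6 of astrocytes, so reads cannot be credited to pericytes alone. Only 1 of 8 endothelial markers, 0 of 6 microglial and 1 of 6 ependymal and choroid plexus markers were. Among all genes with at least 1 count, 47% were at or above 10 CPM in both libraries. Gdnf itself, the driver gene, was at 7.84 CPM in IP2 and 10.2 CPM in IP1. In bulk RNA of this kind, fewer cells of a type and less RNA per cell cannot be told apart.

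Reads of elastic fibre genes were few in this RNA. Together the 10 genes took 74.3 CPM in IP2 and 60.6 CPM in IP1, from 5403 and 3950 counts. Only Efemp1 reached 10 CPM in both libraries, that is 1 of 10 members, against 47% of the 19580 genes with at least 1 count. At 1 CPM in both libraries there were 9 of 10, against 68.7% of those genes. All 10 members had counts in both libraries, and few were abundant. The median of the 10 was 5.56 CPM in IP2 and 3.64 CPM in IP1, beside medians over all detected genes of 9.20 and 9.52 CPM. CPM is not corrected for transcript length, which no source used here gives, so the values below order no gene above another. A fibrillin transcript is far longer than that of Mfap5 and gives more reads per molecule.

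**Figure D1:**
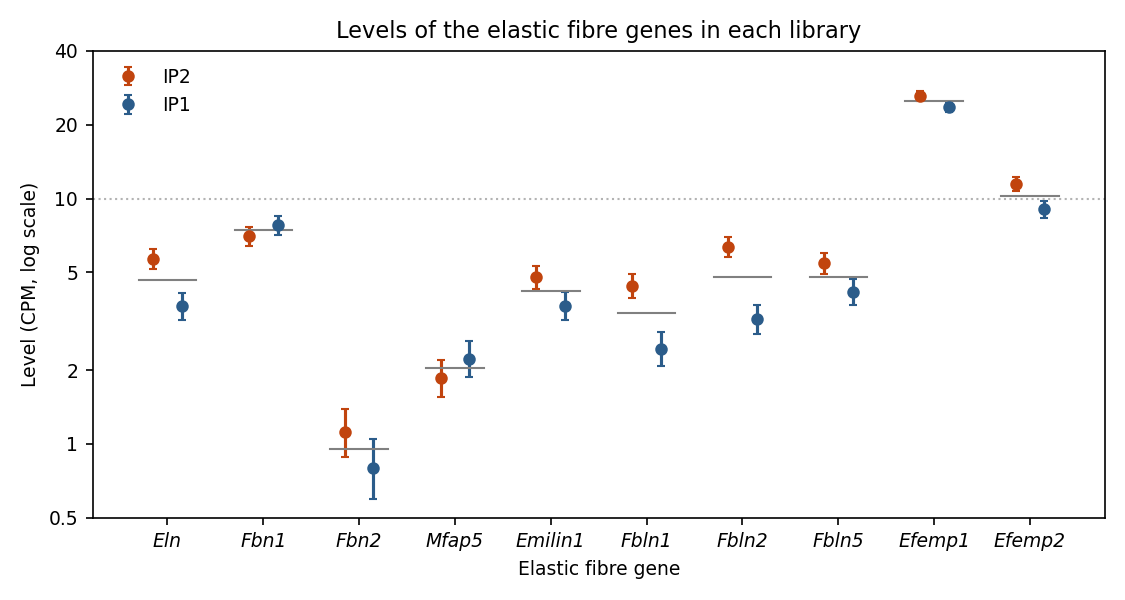
Level of each elastic fibre gene in CPM (log scale) in IP2 (left point) and IP1 (right point), with exact 95% binomial intervals that cover counting error only; grey bars are the mean of both libraries and the dotted line is 10 CPM. Efemp1 was above the line in both libraries and Efemp2 only in IP2.

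Eln, which encodes tropoelastin, had 413 counts in IP2 and 237 in IP1. These are 5.68 CPM (exact 95% binomial interval 5.14 to 6.25) in IP2 and 3.63 CPM (3.19 to 4.13) in IP1. IP2 was higher by a ratio of 1.62 after scaling (counting interval 1.38 to 1.91). The core protein of the fibre was thus represented by few reads in each library. The gene lies on chromosome 5 (134702595 to 134747368), where the annotated span of Gm30003 overlaps it. Gm30003 has no row in the files.

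The fibrillins and Mfap5 make up the microfibril scaffold. Fbn1 encodes fibrillin-1, which is altered in human Marfan syndrome, and had 511 counts in IP2 and 508 in IP1. Its levels were 7.03 CPM (6.43 to 7.66) in IP2 and 7.79 CPM (7.13 to 8.50) in IP1. The intervals overlap, and the ratio of 0.93 had an interval of 0.82 to 1.06. Fbn2 encodes fibrillin-2, best known from developing tissue, and had 81 counts in IP2 and 52 in IP1. At 1.11 CPM (0.88 to 1.38) in IP2 and 0.80 CPM (0.60 to 1.05) in IP1 it was the only member under 1 CPM in a library. Mfap5 encodes MAGP-2, a small glycoprotein that binds fibrillin, and had 135 counts in IP2 and 145 in IP1. Its 1.86 CPM (1.56 to 2.20) in IP2 and 2.22 CPM (1.88 to 2.62) in IP1 overlap within counting error. Fbn1 lies on chromosome 2 (125300594 to 125506485), Fbn2 on chromosome 18 (58008623 to 58210572) and Mfap5 on chromosome 6 (122513584 to 122529290). The annotated span of Gm41741, which has no row in the files, overlaps Fbn2.

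Emilin1 encodes a glycoprotein found where elastin meets microfibrils, which in mice also restrains TGF-beta. It had 347 counts in IP2 and 238 in IP1, or 4.77 CPM (4.28 to 5.30) in IP2 and 3.65 CPM (3.20 to 4.14) in IP1. The ratio was 1.35 (1.14 to 1.60), higher in IP2. It lies on chromosome 5 (30913387 to 30921279).

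Of the fibulins, Fbln5, Efemp2 and Efemp1 form the short subfamily. Fbln5 links tropoelastin to cells and to the crosslinking enzyme Loxl1, and mice that lack it have loose skin and a tortuous aorta. Fbln5 had 396 counts in IP2 and 271 in IP1, which are 5.44 CPM (4.92 to 6.01) and 4.16 CPM (3.68 to 4.68). Efemp2 encodes fibulin-4, which brings lysyl oxidase to tropoelastin. It had 833 counts in IP2 and 589 in IP1, which are 11.5 CPM (10.7 to 12.3) and 9.03 CPM (8.32 to 9.79). Neither gene's intervals overlap between the libraries, and both were higher in IP2. Efemp1 encodes fibulin-3, which is altered in an inherited human macular disease and needed in mice for fascia. It had 1906 counts in IP2 and 1541 in IP1, and its 26.2 CPM (25.0 to 27.4) in IP2 and 23.6 CPM (22.5 to 24.8) in IP1 lay close together, with intervals that just miss each other. Efemp1 supplied 35.3% of all member reads in IP2 and 39.0% in IP1. These genes lie on chromosomes 12 (101746565 to 101819119), 19 (5473946 to 5482520) and 11 (28853154 to 28926743), in the order Fbln5, Efemp2, Efemp1.

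The longer fibulins, Fbln1 and Fbln2, are found in elastic fibres and also in basement membranes. Fbln1 had 320 counts in IP2 and 159 in IP1, which are 4.40 CPM (3.93 to 4.91) in IP2 and 2.44 CPM (2.07 to 2.85) in IP1. Fbln2, whose product binds fibrillin and versican, had 461 counts in IP2 and 210 in IP1, which are 6.34 CPM (5.77 to 6.94) in IP2 and 3.22 CPM (2.80 to 3.69) in IP1. For both genes the interval in IP2 lay wholly above that in IP1. In the counting test below, 37.3% of all genes tested passed on the IP2 side and 38.3% on the IP1 side. Differences past counting error were thus common. Fbln1 lies on chromosome 15 (85205949 to 85286294) and Fbln2 on chromosome 6 (91212460 to 91272540). Over both libraries, Fbln2 averaged 4.78 ± 2.20 CPM, Fbln1 3.42 ± 1.39 CPM and Eln 4.66 ± 1.44 CPM (SD, n = 2). The fibrillins averaged 7.41 ± 0.54 CPM for Fbn1 and 0.96 ± 0.22 CPM for Fbn2 (SD, n = 2). The remaining means were 24.9 ± 1.82 CPM for Efemp1, 10.2 ± 1.71 CPM for Efemp2, 4.80 ± 0.91 CPM for Fbln5, 4.21 ± 0.79 CPM for Emilin1 and 2.04 ± 0.26 CPM for Mfap5 (SD, n = 2).

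The libraries were then compared gene by gene, with counts scaled by TMM and a two-sided exact binomial test adjusted over all 17306 genes tested. This test compares the reads of 2 libraries, holds counting error only and tests no condition. Elastin, the interface protein and all 5 fibulins were higher in IP2: 7 of 10 members passed an adjusted p of 0.05 on the IP2 side and 0 on the IP1 side. Of all genes tested, 37.3% passed on the IP2 side and 38.3% on the IP1 side. Only Fbln2 also had a ratio of at least 2, that is 1 of 10 members higher in IP2, against 7.18% of all genes, and 0 of 10 were higher in IP1, against 10.2%. At a ratio of at least 1.5 there were 3 of 10 higher in IP2 (Fbln2, Fbln1 and Eln), against 13.9%, and 0 in IP1, against 15.3%. The members had a median log2 ratio (IP2 over IP1) of 0.44, and all genes tested one of -0.01. Since the members were chosen with it known that matrix genes were higher in IP2, these shares are description only.

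The log2 ratio was 1.03 for Fbln2 (95% counting interval 0.79 to 1.27, adjusted p = 5.08e-18 exact binomial test, Benjamini-Hochberg). For Fbln1 it was 0.90 (0.62 to 1.19, adjusted p = 1.40e-10 by the same exact test), and for Eln 0.69 (0.46 to 0.93, exact adjusted p = 6.31e-09). Fbln2, Fbln1 and Eln thus stood at the upper end of the list. Among the 7148 genes with a mean between those of the lowest and highest members, 48.8% had a ratio above 1, 17% were higher in IP2 at a ratio of at least 1.5 and 6.66% at a ratio of at least 2. In that range, 6.32% had a larger ratio than Fbln2, 8.34% a larger one than Fbln1 and 13.3% a larger one than Eln. The difference was smaller for Fbln5 (log2 ratio 0.44, exact adjusted p = 0.000202), Emilin1 (0.44, exact adjusted p = 0.000572) and Efemp2 (0.39, exact adjusted p = 9.04e-07). It was smallest of the 7 for Efemp1 (0.20, exact adjusted p = 0.000102). The scaffold genes among the members did not pass. Fbn2 had a log2 ratio of 0.53 (0.01 to 1.06, exact adjusted p = 0.0584), Fbn1 -0.10 (-0.28 to 0.08, exact adjusted p = 0.334) and Mfap5 -0.21 (-0.56 to 0.14, exact adjusted p = 0.288). The interval of Fbn2 includes a ratio of 2, so its 133 reads in all could not settle a difference of the size seen for Fbln2.

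**Figure D2:**
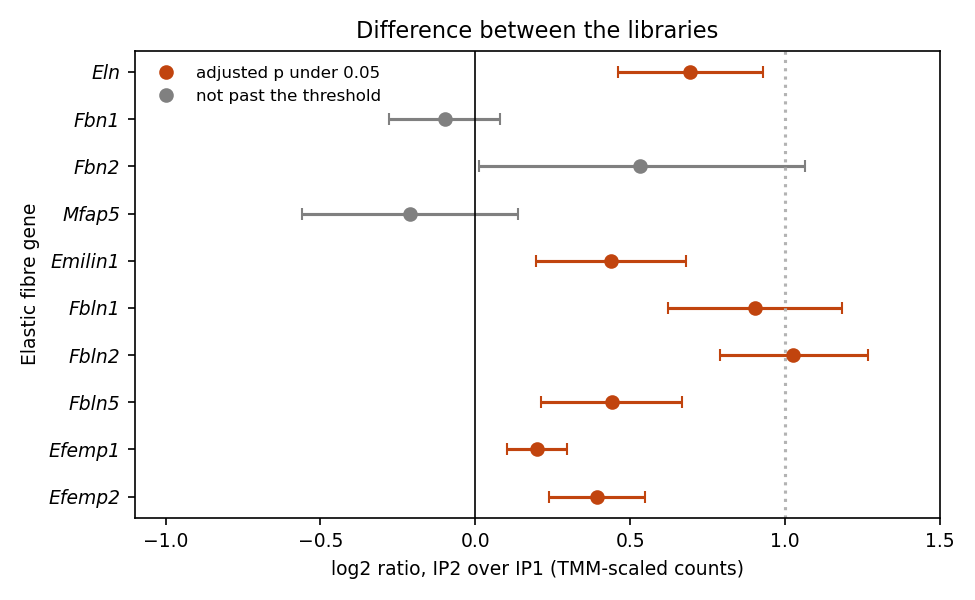
log2 ratio of IP2 over IP1 from TMM-scaled counts for each elastic fibre gene, with 95% intervals that cover counting error only; the dotted line is a ratio of 2 and colour marks an adjusted p under 0.05 in the exact binomial test. The 7 coloured genes lie right of 0, and the intervals of Fbln2, Fbln1 and Fbn2 reach past the dotted line.

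With an assumed coefficient of variation of 0.2 between libraries in place of counting error alone, edgeR's exact test passed 0 of the 10 members after adjustment (adjusted p from 0.121 for Fbln2 to 0.998 for Fbn1), against 4.59% of all genes tested higher in IP2 and 7.12% higher in IP1. At an unadjusted p under 0.05 it passed 2 of 10, Fbln1 and Fbln2, both higher in IP2, against 8.56% of all genes on that side. Scaled by total gene counts, the log2 ratio of Fbln2 was 0.98, under a ratio of 2, so no member was called in that scaling.

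**Figure D3:**
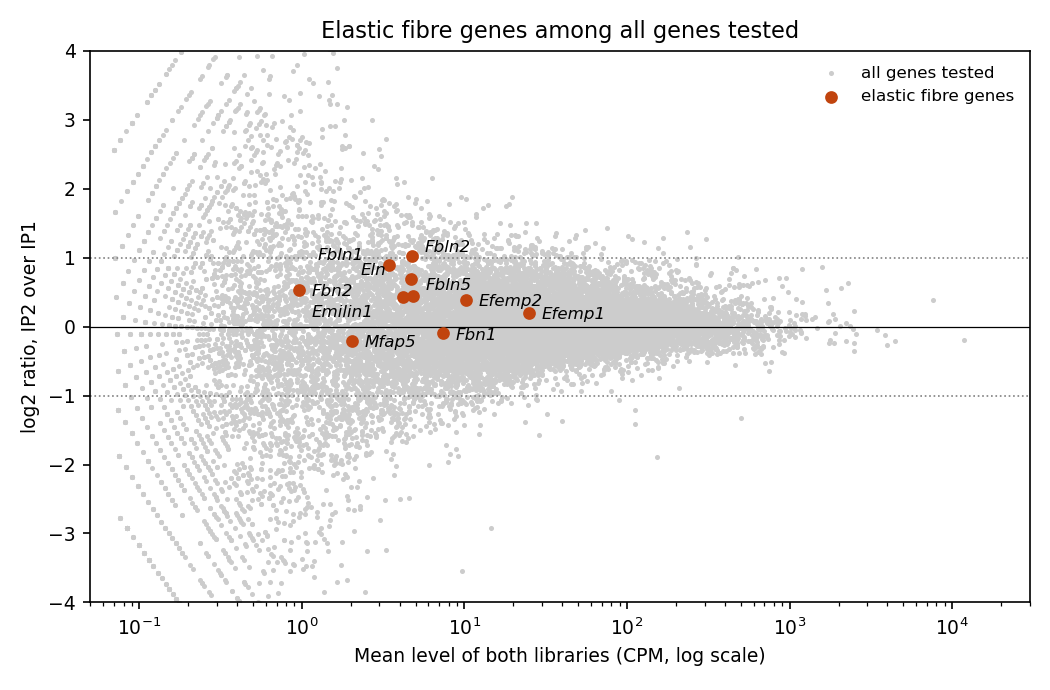
log2 ratio of IP2 over IP1 against the mean level of both libraries in CPM (log scale) for all 17306 genes tested (grey) and the elastic fibre genes (red); dotted lines mark ratios of 2 in either direction, and genes beyond a log2 ratio of 4 in either direction are not drawn. The members lie within the grey cloud, 8 of 10 above 0, where 49.4% of all genes tested were.

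Summed marker lists also differed between the libraries. Counts of markers below are those past the adjusted p, to be read beside all genes tested. Of those genes, 37.3% passed on the IP2 side and 38.3% on the IP1 side. Fibroblast markers were at 3114 CPM in IP2 and 2232 CPM in IP1, with 9 of 10 past the adjusted p on the IP2 side, 1 on the IP1 side and none at 0. Apod held most of the fibroblast sum (2446 CPM in IP2, 1712 CPM in IP1). Pericyte markers were at 2040.4 CPM in IP2 and 1513 CPM in IP1 (5 of 8 higher in IP2, 3 higher in IP1). Arterial smooth muscle markers were at 1452 CPM and 1700.5 CPM (4 of 8 higher in IP2, 3 higher in IP1). Myl9 held most of the smooth muscle sum (764 CPM in IP2, 945 CPM in IP1). Astrocyte markers were at 2418 CPM in IP2 and 1363 CPM in IP1, with 6 of 6 higher in IP2. Most of that sum was Slc1a2 (2028 CPM in IP2, 1158.5 CPM in IP1). Oligodendrocyte precursor markers summed to 2799 CPM in IP2 and 2264 CPM in IP1, and oligodendrocyte markers to 2185 and 2039 CPM, each list with 4 of 6 higher in IP2 and 2 higher in IP1. Neuronal markers summed to 12648 CPM in IP2 and 14639 CPM in IP1, most of it Snap25 (10795 and 12770 CPM), with 3 of 6 higher on each side. Endothelial markers summed to 60.6 CPM in IP2 and 64.9 CPM in IP1, with 4 of 7 tested higher in IP2 and 2 higher in IP1. Within the list, Emcn was at 33.3 and 42.1 CPM, and Cldn5 had 0 counts in IP2 and 5 in IP1. Microglial markers were at 27.5 and 23.8 CPM (3 of 6 higher in IP2, 1 higher in IP1). Ependymal and choroid plexus markers were at 30.9 and 24.8 CPM (3 of 4 tested higher in IP2, 1 higher in IP1), Kcne2 being at 0 in both. Kl gave most of that sum (25.0 CPM in IP2, 19.4 CPM in IP1). The part of any of these in the differences of the elastic fibre genes was not tested.

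Other genes of fibre assembly were described in the same way, from 10 lists of 60 genes, of which 53 had enough counts to be tested. On the IP2 side 38 of the 53 passed the adjusted p, against 37.3% of all genes, and 6 passed on the IP1 side, against 38.3%. At a ratio of at least 2 there were 8 of 53 higher in IP2, against 7.18% of all genes, and 3 of 53 higher in IP1, against 10.2%. The median log2 ratio of the 53 was 0.50. In the list counts below, higher means past the adjusted p alone, and called means a ratio of at least 2 as well. These lists were chosen with it known that matrix genes were higher in IP2 in these data, so the shares are description only.

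In the list of genes named as microfibril-associated, 6 of 7 were higher in IP2, against 37.3% of all genes tested. Mfap4 (50.6 CPM in IP2, 30.2 CPM in IP1) and Mfap2 (2.14 and 1.23 CPM) were among these 6. The 1 higher in IP1 was Mfap1a (27.0 CPM in IP2, 42.8 CPM in IP1), listed by its name only. The proteoglycan genes Bgn (433 CPM in IP2, 318 CPM in IP1), Dcn (236 and 206 CPM) and Vcan (96.1 and 70.3 CPM) had the most reads, and Dcn is also one of the fibroblast markers. All 4 genes of the list of latent TGF-beta binding proteins, which are relatives of the fibrillins, were higher in IP2. Ltbp1 was at 39.0 CPM in IP2 and 21.8 CPM in IP1, Ltbp3 at 26.7 and 14.4 CPM, and Ltbp4, which also takes part in elastin assembly, at 12.1 and 9.82 CPM. Their median log2 ratio was 0.84, each with a ratio under 2.

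Relatives of Emilin1 had few or no reads. Emilin2 had 82 counts in IP2 and 25 in IP1 and was called higher in IP2 (log2 ratio 1.61, adjusted p = 5.19e-07 in the exact binomial test). Emilin3 had 0 counts in IP2 and 2 in IP1. Mmrn1 and Mmrn2, the multimerin genes, had 0 counts in both libraries, which allows up to 3 counts each, or 0.041 CPM in IP2 and 0.046 CPM in IP1. Of the other fibulins, Fbln7 (11.3 CPM in IP2, 7.81 CPM in IP1) and Hmcn2 (2.72 and 1.84 CPM) were higher in IP2. Hmcn1, a hemicentin gene, was called higher in IP1, with 23 counts in IP2 and 79 in IP1.

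The lysyl oxidases, which crosslink elastin, were detected. Lox was at 6.09 CPM in IP2 and 4.10 CPM in IP1 and Loxl3 at 6.78 and 5.66 CPM. Loxl2 was called higher in IP2, at 11.1 CPM against 4.48 CPM in IP1 (log2 ratio 1.36). Atp7a, the copper transporter that loads these enzymes, had 77.2 CPM in IP2 and 49.6 CPM in IP1. Of the 6 genes of this list, 4 passed on the IP2 side and 0 on the IP1 side.

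Of the 6 ADAMTS and ADAMTS-like genes linked to microfibrils, 2 passed on each side, against 37.3% (IP2 side) and 38.3% (IP1 side) of all genes. Adamtsl4 (9.60 CPM in IP2, 4.19 CPM in IP1) and Adamts10 (6.23 and 3.16 CPM) were called higher in IP2. Adamtsl2 was called higher in IP1, with 29 counts in IP2 and 65 in IP1. Thsd4, also known as Adamtsl6, was at 5.77 CPM in IP2 and 6.47 CPM in IP1 and did not pass. This list had a median log2 ratio of 0.06.

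Genes that chaperone or fold elastin and other matrix proteins were higher in IP2 in 5 of 6 cases, against 37.3% of all genes tested. On the IP1 side there were 0, against 38.3%. Serpinh1, a collagen chaperone of the endoplasmic reticulum, was called with 28.7 CPM in IP2 and 14.0 CPM in IP1. Fkbp14, a prolyl isomerase of the same compartment, was called with 25.7 CPM in IP2 and 13.1 CPM in IP1. Ctsa, whose product is part of the elastin receptor complex, was at 41.0 and 33.3 CPM.

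Of 8 elastolytic protease genes, 6 had enough counts to be tested, of which 3 were higher in IP2 and 0 higher in IP1. For these and the inhibitors below, the shares over all genes tested were 37.3% and 38.3%. The macrophage elastase gene Mmp12 and the neutrophil elastase gene Elane had 0 counts in both libraries. Ctsl, a lysosomal cathepsin, was at 162 CPM in IP2 and 124 CPM in IP1, and Mmp14, a membrane metalloproteinase, at 16.3 and 12.2 CPM. Mmp2, which cleaves elastin and is activated by Mmp14, was called higher in IP2, at 9.73 CPM against 3.77 CPM in IP1. Of the 7 inhibitors, 6 were tested, of which 4 were higher in IP2 and 1 higher in IP1. Timp3 (519 CPM in IP2, 334 CPM in IP1), Cst3 (277 and 179.9 CPM) and Timp2 (219.8 and 168 CPM) had the most reads.

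Integrins that bind fibrillins, fibulins or emilins connect the fibre to cells. Of 9 such genes, 8 had enough counts to be tested, of which 7 were higher in IP2 and 1 higher in IP1. Across all genes tested these shares were 37.3% and 38.3%. Itgb1 (194 CPM in IP2, 104 CPM in IP1), Itgav (102 and 66.4 CPM) and Itga4 (42.5 and 40.2 CPM) had the most reads. Itga5 was called higher in IP2, with 338 counts in IP2 and 149 in IP1, and Itgb3 higher in IP1, with 67 counts in IP2 and 139 in IP1.

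**Figure D4:**
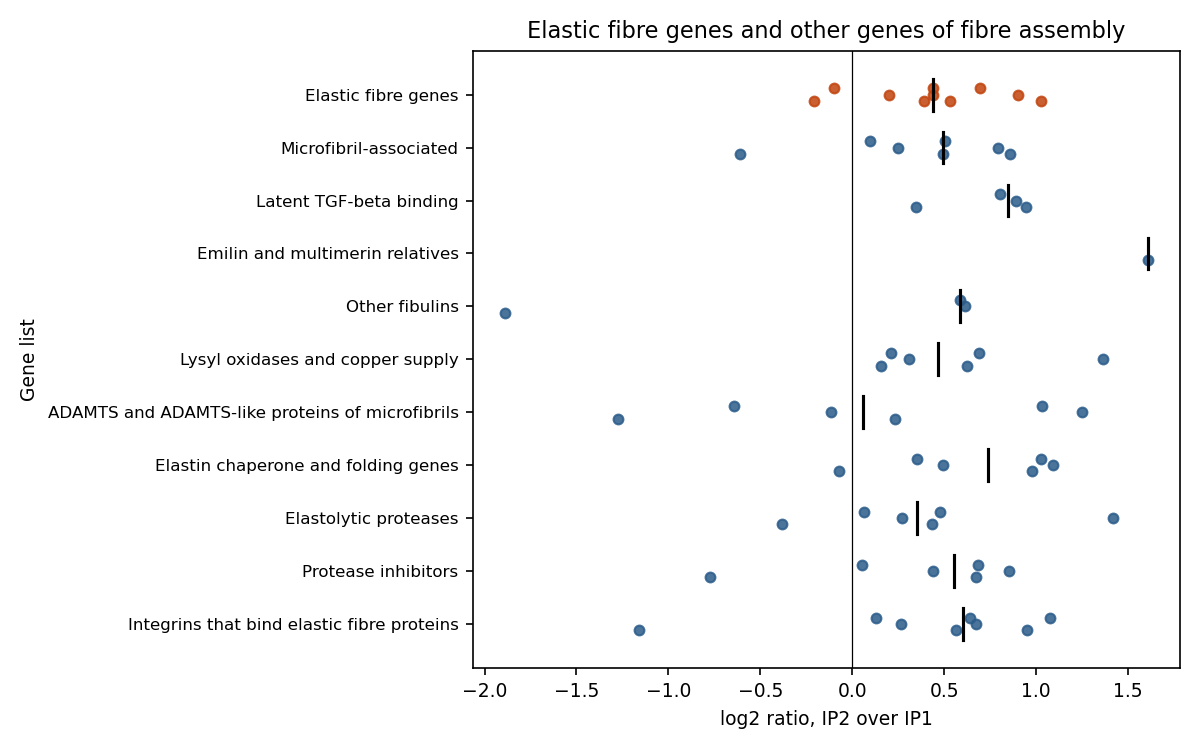
log2 ratio of IP2 over IP1 for the elastic fibre genes (red) and the tested genes of 10 lists of fibre assembly (blue), one point per gene; black bars are list medians. The latent TGF-beta binding proteins all lie right of 0, and the ADAMTS list spreads to both sides.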

How the data were processed

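RNA bound to tagged ribosomes was measured in 2 libraries of 1 group. The deposited files hold raw read counts per gene symbol; per the submitters' processing notes the tools were STAR 2.0.0e and HTSeq and the genome build mm10. Neither the annotation nor the strand setting is stated, and both are unknown here. Rows of unassigned reads and a row with no gene name (0 reads in IP2, 1 in IP1) were left out. Reads in genes were 57.7% of listed reads in IP2 and 58.1% in IP1. Reads with several alignments, and reads matching several genes, are in no gene's count.

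CPM was taken on total gene counts. Intervals are exact (Clopper-Pearson, 95%) and, like the limit of 3 counts for a count of 0, cover counting error only, since PCR copies are not marked. Ratios of IP2 over IP1 used TMM from edgeR 4.0.16, and medians over lists a prior of 0.5 counts; single ratios used none. Genes with 10 or more counts over both libraries were tested, and a call needs both a ratio of 2 or more and a Benjamini-Hochberg adjusted p below 0.05. The test was checked on simulated counts that held counting error only. That check does not measure the test's error rate in these libraries. Setting 2 libraries against each other leaves no residual error, so no quasi-likelihood test was run. DESeq2 1.42.0 gave alternative size factors, with R 4.3.3. Other steps ran in Python 3.11.15 with scipy 1.17.1, pandas 2.3.3 and numpy 2.4.6. The libraries were not copies of each other (chi-square 88.9 per degree of freedom over the genes tested). Gene spans come from RefSeq (GRCm38.p6). Levels per length and protein features were planned and not computed, since no exon lengths or protein sequences were at hand.

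The members and lists were chosen with earlier results of these data known, among them that matrix genes were higher in IP2. Named are all members and, of each assembly list, the 3 genes with the highest mean CPM, those called and those at 0 in both libraries. Lox was added after its values were seen, as were Loxl1, Loxl4, Mfap1a, Mfap2, Mfap4, Cldn5, Emcn, Snap25, Apod, Slc1a2, Myl9 and Kl.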

Additional observations from a re-analysis of the deposited data

How the results depend on the processing

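The count of members called higher in IP2 was 1 as reported, 0 with scaling by total gene counts, 3 at a ratio of at least 1.5 and 0 with an assumed coefficient of variation of 0.2 (all genes tested: 7.18% as reported, 13.9% at 1.5 and 4.59% with the assumed variation); DESeq2 size factors and other filters on low counts gave 1. No member was called higher in IP1 under any of these. With the assumed variation, the 7 members that passed on the IP2 side no longer did. The median log2 ratio of the members was between 0.39 and 0.44 over the scalings and filters tried, and no member's ratio changed sign. In both libraries, 1 member reached 10 CPM, 9 reached 1 CPM and 0 reached 30 CPM. The count at 10 CPM was between 1 and 2 when 1 library was left out, since Efemp2 passed only in IP2. Alternatives for the other assembly genes were added after seeing the data. In them, 24 genes were called higher in IP2 and 6 in IP1 at a ratio of at least 1.5 (all genes: 13.9% and 15.3%), and 4 and 1 with the assumed variation (4.59% and 7.12%), against 8 and 3 of 53 as reported. Scaling by total gene counts gave 6 and 3. The cause of these changes was not tested, beyond the lower ratio and the wider error that 2 of the settings impose. Levels per coding length were not run. No paired analysis was possible because the series has 1 group. Fbn2, with 81 counts in IP2 and 52 in IP1, was limited most by depth.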
